A study of Mus musculus with 32 samples.

Results

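The genes described are the translation initiation and elongation factors of mouse liver, the proteins that place the ribosome on messenger RNA (mRNA) and move it along the message. Members were taken by name: every gene whose symbol begins with Eif1 to Eif6 or with Eef1 or Eef2, except Eif5, and that has a probe set annotated to it alone. A probe set is the group of short oligonucleotides by which the array reads a transcript. That gave 48 genes of the 8251 with a probe set of their own, from 65 candidate probe sets, and each gene with several was read by the one with the highest mean over the 32 arrays. The family also has 1 probe set annotated to several genes, among them Eif4a3, which was not used.

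Messenger RNA was measured in 32 liver samples of male C57BL/6 mice, 3 months old. They are called livers below, although the labels do not state that each came from its own mouse. Every mouse was homozygous for a floxed Rps6 allele, Rps6 being the gene of a protein of the small ribosomal subunit. The animals had undergone partial hepatectomy, in which part of the liver is removed and the rest regrows, and tissue was collected 0, 20, 30 or 40 h later. Cre plus mice carried the mx-cre transgene, whose recombinase is driven by an interferon-responsive promoter and was induced by injecting polyinosinic-polycytidylic acid. Cre minus mice lacked the transgene and kept Rps6. The sources used here do not say whether Cre minus mice were injected too, nor how long before surgery the injection was given. The promoter is not restricted to hepatocytes, so recombination in other liver cells is part of the Cre plus condition. Each group held 4 livers, except that Cre plus had 3 at 30 h and 5 at 40 h. PHX2 and PHX3 are batch names in the labels; both contributed to all 8 groups, though only 1 Cre minus liver of 40 h was in PHX2.

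Initiation begins when eIF1, eIF1A and eIF3 bind the small ribosomal subunit and eIF2 brings the initiator tRNA. The eIF4 proteins bind the cap of the mRNA and unwind its leader so that the loaded subunit can scan to the start codon. eIF5B then joins the large subunit, which eIF6 otherwise keeps apart, and eEF1A and eEF2 drive elongation by delivering aminoacyl-tRNA and translocating the ribosome. Cells adjust the pathway through eIF4E-binding proteins, which mTOR signalling releases from eIF4E, and through kinases that phosphorylate eIF2. In the regenerating liver this machinery supports the protein synthesis that precedes cell division.

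Promoter stretches are shown for members called between genotypes at 40 h, to set sequence beside expression. Eif4a1 is added, the member called in most comparisons of a time with 0 h (5 of 6). Members called in time only, such as Eif4ebp2 and Eif2ak1 (4 of 6 each) and Eif4b (2 of 6), are not shown. Of the 48 members 40 matched an entry in the RefSeq promoter table of GRCm38.p6, and among the 8 members called higher in Cre plus livers at 40 h, 5 did. No entry was found for Eif6, Eif1a or Eif4g2. The window of Eif2s3y reached into the annotated gene and is not printed. Each line gives the 250 bases just before the transcription start, 5′ to 3′ on the gene's strand. Capitals mark 3 searched motifs, on either strand: the E-box CACGTG, the ETS-type site CCGGAAG and the CCAAT box CCAAT, none of which overlapped another here.
Eef2: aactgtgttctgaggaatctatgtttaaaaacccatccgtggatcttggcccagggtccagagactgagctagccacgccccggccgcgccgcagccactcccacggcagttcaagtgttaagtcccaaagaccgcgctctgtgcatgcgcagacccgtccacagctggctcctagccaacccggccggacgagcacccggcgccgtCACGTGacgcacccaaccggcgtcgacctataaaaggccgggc
Eif1ax: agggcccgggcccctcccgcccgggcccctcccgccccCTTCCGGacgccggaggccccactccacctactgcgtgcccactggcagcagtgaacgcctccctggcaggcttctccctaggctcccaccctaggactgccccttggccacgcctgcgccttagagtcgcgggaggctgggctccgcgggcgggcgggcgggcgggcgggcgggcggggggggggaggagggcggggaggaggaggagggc
Eif3m: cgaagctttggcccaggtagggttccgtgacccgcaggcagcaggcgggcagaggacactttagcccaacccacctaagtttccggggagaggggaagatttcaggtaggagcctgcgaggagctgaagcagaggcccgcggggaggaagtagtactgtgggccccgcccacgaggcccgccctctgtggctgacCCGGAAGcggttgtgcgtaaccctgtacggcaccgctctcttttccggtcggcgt
Eif3j1: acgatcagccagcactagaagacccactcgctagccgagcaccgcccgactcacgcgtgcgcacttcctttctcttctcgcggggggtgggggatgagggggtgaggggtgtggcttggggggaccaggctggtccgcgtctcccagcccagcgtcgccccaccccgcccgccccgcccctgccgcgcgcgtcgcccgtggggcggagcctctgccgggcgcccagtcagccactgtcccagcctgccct
Eif4a1: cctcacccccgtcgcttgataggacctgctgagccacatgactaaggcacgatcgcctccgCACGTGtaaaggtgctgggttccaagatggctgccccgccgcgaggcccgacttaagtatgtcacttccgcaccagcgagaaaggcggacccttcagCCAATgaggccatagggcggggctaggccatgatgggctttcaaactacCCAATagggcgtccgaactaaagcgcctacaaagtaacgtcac
Eef2 is at chr10:81176381-81176630 on the plus strand, with CACGTG starting 43 bases before the start site. Eif1ax is at chrX:159371928-159372177 on the plus strand, and its capitals are the ETS-type site in reverse complement, 212 bases before the start. Eif3m is at chr2:105017028-105017277 on the minus strand, with CCGGAAG 55 bases before the start. Eif3j1, at chr2:122028330-122028579 on the plus strand, held none of the 3 motifs in this window. Eif4a1 is at chr11:69672424-69672673 on the minus strand and held CACGTG 189 bases before the start and CCAAT at 92 and 43 bases. Over the 250-base windows of all 32851 promoters in the table, 6.02% held the E-box, 6.91% the ETS-type site and 33.8% the CCAAT box. Among the 55 promoters of the 40 matched members the shares were 20%, 16.4% and 21.8%. These are counts of letters, and binding was not measured.

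The deletion was visible in every Cre plus liver. Rps6 itself had a mean log2 value of 11.11 ± 0.13 (SD, n = 4) in the Cre minus group of 0 h and 6.81 ± 0.44 (SD, n = 4) in the Cre plus group. At the later times Cre minus means of 11.35 to 11.57 faced Cre plus means of 6.89 to 7.23. The annotation lists the pseudogene Rps6-ps4 for the same probe set. Of 8 hepatocyte markers, albumin (Alb) lay between 13.35 and 13.83 over all arrays and transthyretin (Ttr), the most variable, between 8.93 and 11.74. Ttr was also the 1 of these 8 called between genotypes at 40 h, with a log2 difference of -1.24, Cre plus being lower (adjusted p = 0.0227). At 40 h 6 of 9 measured Kupffer cell and macrophage markers and 2 of 4 erythroid markers were called lower in Cre plus livers. Of all probe sets tested 3.07% were. Their summed levels at 40 h were 10.30 to 10.99 against 11.19 to 11.84, and 9.26 to 10.95 against 11.76 to 12.64. Calls were made earlier too: 5 of 9 and 2 of 4 at 20 h (0.238% of probe sets lower) and 2 of 9 and 0 of 4 at 30 h (0.151%). At 0 h none of these markers was called (0.0216%). The median difference of the macrophage markers was -0.54, -1.01, -0.50 and -0.81 at 0, 20, 30 and 40 h. The part of these cells in the differences below was not tested, and in whole liver fewer cells of a type cannot be told apart from less RNA per cell. The 3′ minus 5′ signal of actin, a sign of RNA integrity, was 1.01 ± 0.08 (SD, n = 4) in Cre minus and 0.97 ± 0.16 (SD, n = 5) in Cre plus livers at 40 h. Arrays that correlated with their group at a mean r under 0.95 were replicate C of Cre minus at 30 h, replicate A of Cre plus at 30 h and replicate D of Cre plus at 40 h. Results are also given without them.

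All values are RMA expression values on the log2 scale as deposited, and differences are log2 differences fitted with limma over 8 groups and batch, with their standard error (SE). A difference is called at a Benjamini-Hochberg adjusted p under 0.05 over the 9249 probe sets tested. A probe set was tested if it exceeded the 30th percentile of its own array on at least 3 arrays. By that filter 44 members were tested. The 4 others had mean log2 values of 4.24 or below over all arrays: Eif2ak4 at 4.24, Eif4e at 4.04, Eif4enif1 at 3.76 and Eef1g at 3.16. Nothing is said of their changes.

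At 40 h, 8 of the 44 tested members were higher in Cre plus than in Cre minus livers and none was lower. Over all probe sets tested, 5.35% were called in this comparison, 2.28% higher and 3.07% lower. The members were Eif6, Eif3j1, Eif1a, Eif4g2, Eif1ax, Eif2s3y, Eif3m and Eef2, with differences from 0.33 to 1.07. They were read by probe sets 94826_at, 97205_at, 93058_at, 100535_at, 93358_at, 103674_f_at, 96882_at and 97559_at, in that order. Including those not called, 34 of the 44 differences were above 0, with a median of 0.12, beside a median of -0.01 over all probe sets tested. At 0, 20 and 30 h no member was called in this fit. Of all probe sets, 0.0649% were then called at 0 h (0.0432% higher, 0.0216% lower), 0.292% at 20 h (0.0541% higher, 0.238% lower) and 0.281% at 30 h (0.13% higher, 0.151% lower). An unadjusted p under 0.05 was found for 0, 2 and 6 of the 44 members, and for 1.51%, 4.42% and 11.3% of all probe sets. The absence of calls at 30 h depended on the setting: 6 members were called without the 3 arrays of low correlation, and 12 with array weights, which called 11 at 40 h. For these and the other refits, the share of all probe sets called is not given. A change in the members therefore cannot be told apart from a general change in calls. The number called at 40 h fell to 2 without Cre minus replicate A or C and to 5 without Cre plus replicate B, C or E, and it was 10 without Cre minus replicate D and also without the 3 arrays of low correlation. In PHX3 alone it was 6. In PHX2 alone, with 1 Cre minus and 2 Cre plus livers, it was 0.

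**Figure D1:**
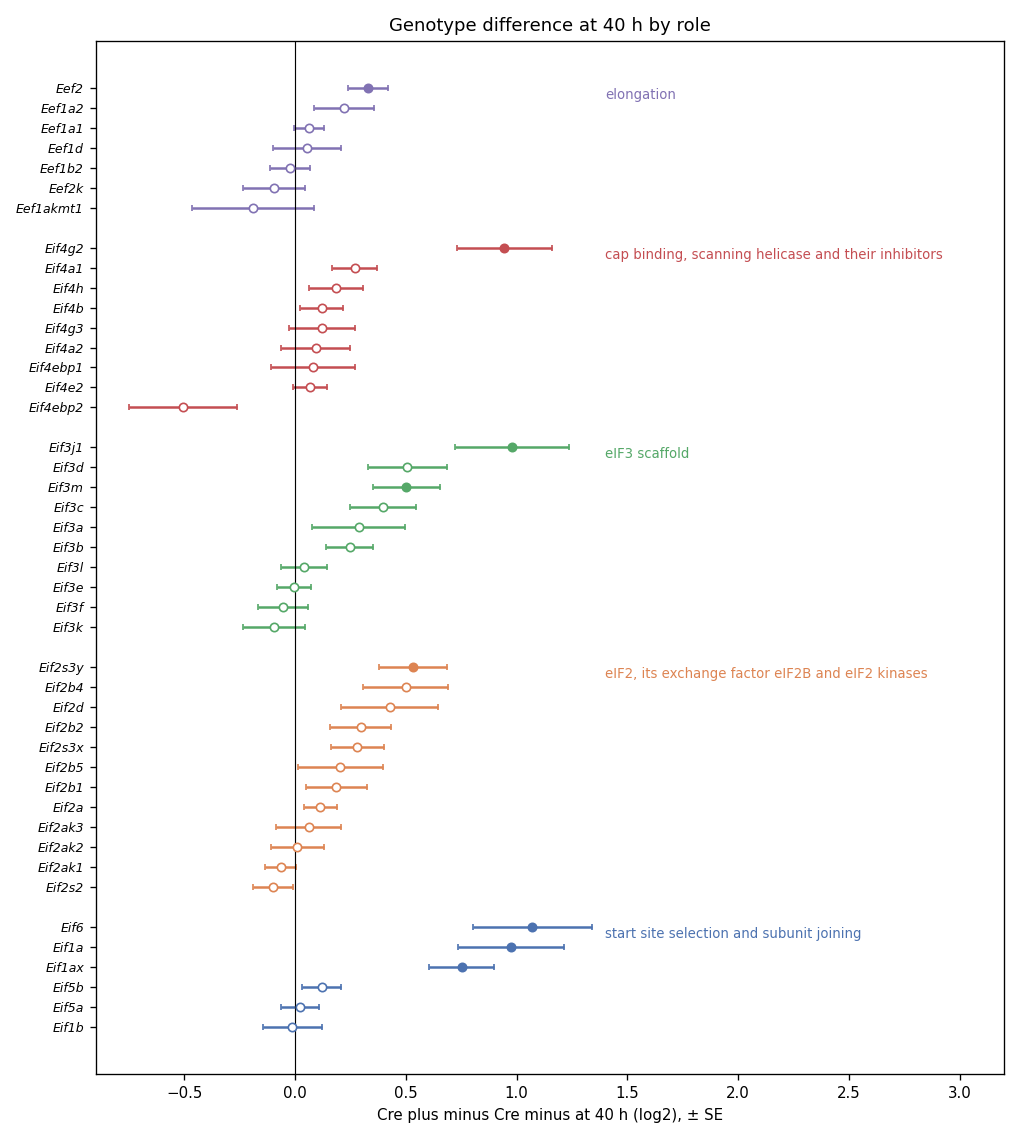
Fitted Cre plus minus Cre minus difference at 40 h (log2, x axis) of the 44 tested members, grouped and coloured by role; bars are ± 1 SE, filled points are called and open points are not. The 8 filled points lie between 0.33 and 1.07, and most open points lie between 0 and 0.51.

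In 9 of the 44 members every Cre plus liver of 40 h lay above every Cre minus liver of 40 h, and in none below. Over all probe sets tested, 3.03% lay above in this way and 3.08% below. The 9 were Eif6, Eif3j1, Eif4g2, Eif1ax, Eif2s3y and Eef2 among the called members, and Eif3d, Eif3b and Eif2b2, which were not called. At 0 h 2 members, Eif2d and Eif3b, showed such a separation against 1.85% of probe sets. At 20 and 30 h no member did, beside 0.703% of probe sets above and 1.37% below at 20 h, and 2.62% above and 3.43% below at 30 h.

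Among the 6 factors of start site selection and subunit joining, all tested, 3 were higher in Cre plus livers at 40 h. Of all probe sets 2.28% were. The largest difference was in Eif6, the factor that binds the large subunit, serves in its maturation and keeps it from joining prematurely. Its 4 Cre minus livers at 40 h read 8.0, 8.17, 7.99 and 8.45, and the 5 Cre plus livers 8.63, 9.86, 8.83, 9.03 and 9.77. The groups did not overlap, and the Cre plus livers spread over more than a log2 unit. The difference was 1.07 ± 0.27 (SE), or 2.10-fold (adjusted p = 0.0158), with 0.95 within PHX2 and 1.05 within PHX3. The call was lost without Cre minus replicate A or C or Cre plus replicate B or E, with adjusted p of 0.0516 to 0.0602 and differences of 0.90 to 1.02.

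Eif1a and Eif1ax encode closely related forms of eIF1A, which binds the small subunit's A site and promotes scanning. Eif1a read 7.16, 7.18, 7.07 and 7.65 in the Cre minus livers of 40 h, and 7.54, 8.30, 8.01, 8.66 and 8.54 in the Cre plus livers. Cre plus replicate A fell inside the Cre minus range and the other 4 lay above it. The difference was 0.97 ± 0.24 (SE), 1.96-fold (adjusted p = 0.0137), and without Cre minus replicate A or C the adjusted p was 0.0529 and 0.0583. A second Eif1a probe set differed by 0.89, with an adjusted p of 0.0607. Eif1ax read 6.79, 7.08, 6.41 and 7.07 in Cre minus and 7.44, 7.73, 7.70, 7.23 and 7.72 in Cre plus livers, without overlap. Its difference of 0.75 ± 0.15 (SE), 1.68-fold, had the lowest adjusted p among the members, 0.00169, and the call was kept when any 1 of the 9 arrays was left out. A second, dimmer Eif1ax probe set, with a mean of 5.42 over all arrays, differed by 0.04 only (adjusted p = 0.952), so the probe sets of this gene disagree. Of the other 3 factors of this role, Eif5b, the subunit-joining GTPase, differed by 0.12, Eif5a by 0.02 and Eif1b by -0.01, and none was called.

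**Figure D2:**
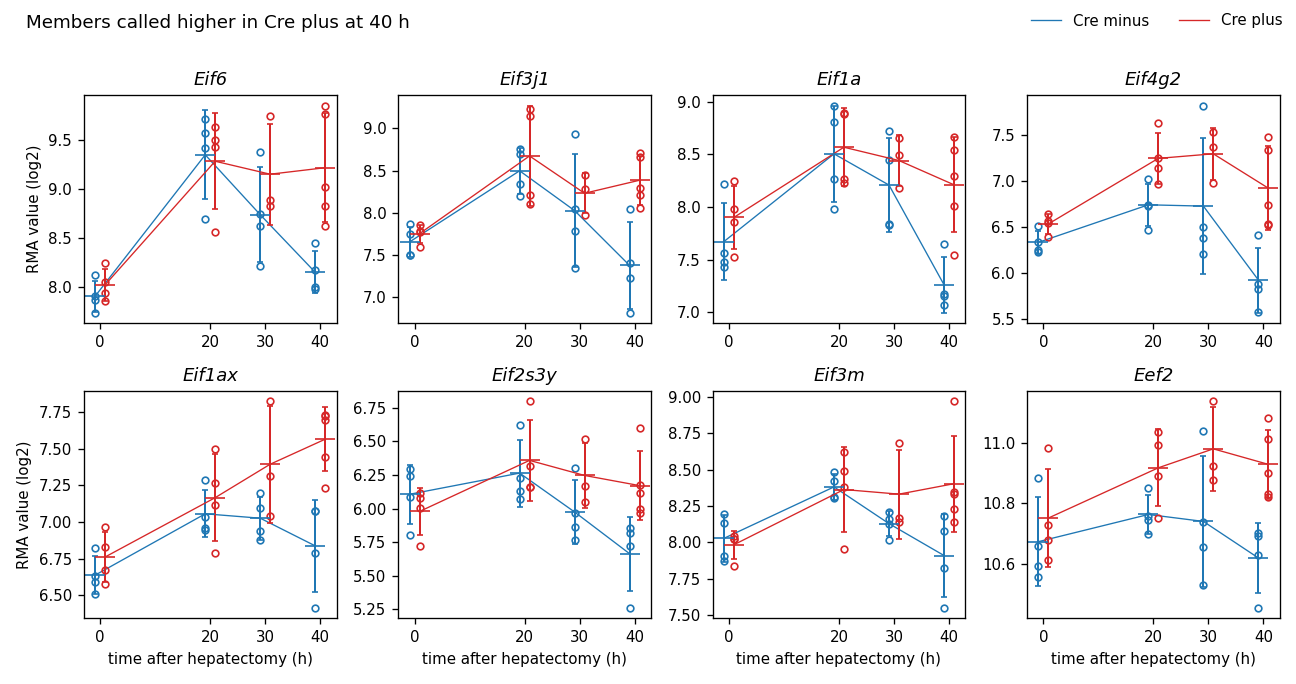
RMA values (log2, y axis) against time after hepatectomy (h, x axis) for the 8 members called higher in Cre plus livers at 40 h; open circles are livers, bars the group mean ± SD, lines join the means, blue Cre minus and red Cre plus (3 to 5 livers per group). Cre plus means stand above Cre minus means at 40 h in all 8 panels, while the genotypes lie close together at 0 h.

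The eIF2 group includes eIF2B, which recharges eIF2 with GTP, and the eIF2 kinases. Of its 12 tested members 1 was called at 40 h (8.33%), beside 5.35% of all probe sets. Differences above 0 were found for 10 of them, beside 3297 of the 6786 genes tested. Eif2s3y, a Y-linked gene for the gamma subunit that holds the initiator tRNA, read 5.26, 5.82, 5.72 and 5.86 in Cre minus livers. In Cre plus livers it read 5.96, 6.12, 6.17, 6.00 and 6.60, with no overlap. The difference was 0.53 ± 0.15 (SE), 1.45-fold (adjusted p = 0.0383). The call was lost in 5 of 9 omissions of 1 array: without Cre minus replicate A (0.38, adjusted p = 0.217), B (0.57, 0.052) or C (0.54, 0.0853), and without Cre plus replicate C (0.55, 0.0517) or E (0.40, 0.121). Its probe set belongs to a kind designed on sequence that related genes may share, so reads of its X-linked copy cannot be told apart. That copy, Eif2s3x, read by another probe set, differed by 0.28 ± 0.12 (SE) and was not called (adjusted p = 0.206), although it passed without Cre minus replicate D (0.41, adjusted p = 0.0442).

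The eIF2B subunits Eif2b1, Eif2b2, Eif2b4 and Eif2b5 had differences of 0.19, 0.30, 0.50 and 0.20 at 40 h. None was called, the lowest adjusted p being 0.144 for Eif2b4. Eif2b2 was tight in Cre minus livers, at 7.25, 7.25, 7.23 and 7.19, and read 7.45, 7.70, 7.27, 7.91 and 7.36 in Cre plus livers. Every Cre plus value was above every Cre minus value, and the adjusted p was 0.256. The kinases Eif2ak1 (HRI, activated by heme shortage), Eif2ak2 (PKR, activated by double-stranded RNA) and Eif2ak3 (PERK, activated by endoplasmic reticulum stress) differed by -0.07, 0.01 and 0.06, and none was called. Eif2a and Eif2d, which can carry tRNA to the ribosome by other routes, differed by 0.11 and 0.43, and Eif2s2, the beta subunit, by -0.10. None of these was called either. Eif2ak3 and Eif2s2 read low, with means of 4.59 and 4.54 over all arrays. They exceeded the filter's percentile on only 6 and 3 of the 32 arrays.

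The eIF3 complex is the scaffold that holds the small subunit and the mRNA together. Its 10 tested members had a median difference of 0.27 at 40 h, beside -0.01 over all probe sets. Of the 10 members 2 were called (20%), beside 5.35% of all probe sets. Eif3j1, a loosely attached subunit at the mRNA entry channel, read 6.82, 7.40, 7.23 and 8.05 in Cre minus livers. The Cre plus livers read 8.20, 8.05, 8.29, 8.71 and 8.67, and the lowest of them was barely above the highest Cre minus liver. The difference was 0.98 ± 0.26 (SE), 1.97-fold (adjusted p = 0.0208). Without Cre minus replicate A it was 0.81 (adjusted p = 0.114) and without C 0.95 (adjusted p = 0.0629). Eif3m read 7.55, 8.18, 7.82 and 8.08 in Cre minus and 8.14, 8.34, 8.33, 8.23 and 8.97 in Cre plus livers, which overlap at the low end. Its difference of 0.50 ± 0.15 (SE), 1.42-fold, was at the edge of the threshold (adjusted p = 0.0496). The call was lost in 6 of 9 omissions: without Cre minus replicate A (0.38, adjusted p = 0.243) or C (0.47, 0.145) and without Cre plus replicate B (0.53, 0.0687), C (0.53, 0.0582), D (0.54, 0.0505) or E (0.35, 0.142).

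The other eIF3 subunits were not called at 40 h. Eif3d, a subunit able to bind the cap of some mRNAs, read 8.88, 8.71, 8.71 and 8.95 in Cre minus and 9.12, 9.67, 9.19, 9.08 and 9.52 in Cre plus livers. Those groups were separate, and the difference was 0.51 ± 0.18 (SE), with an adjusted p of 0.111. Eif3c, a core subunit, differed by 0.40 ± 0.15 (SE) (adjusted p = 0.135), and by 0.57 without Cre minus replicate D (adjusted p = 0.0231). Eif3a and Eif3b, the largest core subunits, differed by 0.29 and 0.25. The subunits Eif3e, Eif3f, Eif3k and Eif3l lay within 0.10 of 0. For Eif3e the probe sets disagree, since the one used differed by less than 0.01 and a dimmer one by 0.58 ± 0.16 (SE) (adjusted p = 0.0339).

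Of the 9 tested cap-binding and helicase factors and their inhibitors 1 was called at 40 h (11.1%), beside 5.35% of all probe sets. Differences above 0 were found for 8 of them, beside 3297 of the 6786 genes tested. Eif4g2, a relative of eIF4G that lacks the eIF4E-binding site and supports cap-independent initiation, read 5.82, 5.88, 5.58 and 6.41 in Cre minus livers. The 5 Cre plus livers read 6.53, 6.52, 6.73, 7.48 and 7.34, all above. The difference was 0.94 ± 0.21 (SE), 1.92-fold (adjusted p = 0.00682), with 0.99 in PHX2 and 0.83 in PHX3. This call was kept in all 9 omissions of 1 array, with adjusted p up to 0.0368. The helicases Eif4a1 and Eif4a2 differed by 0.27 and 0.09, their cofactors Eif4b and Eif4h by 0.12 and 0.18, the scaffold Eif4g3 by 0.12, the cap-binding homologue Eif4e2 by 0.07 and the inhibitor Eif4ebp1 by 0.08, none of them called. The inhibitor Eif4ebp2 had the lowest difference of all members, -0.51 ± 0.24 (SE) (adjusted p = 0.287).

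Elongation factors gave 1 call among 7 tested at 40 h (14.3%), beside 5.35% of all probe sets. Eef2, the translocase, read 10.69, 10.45, 10.70 and 10.63 in Cre minus and 10.90, 11.08, 11.01, 10.82 and 10.83 in Cre plus livers. The groups did not overlap and the spread within each was small. The difference was 0.33 ± 0.09 (SE), 1.26-fold (adjusted p = 0.0301). The call was lost without Cre minus replicate A (0.34, adjusted p = 0.0598), B (0.26, 0.124) or C (0.35, 0.0531), and without Cre plus replicate B (0.30, 0.079) or C (0.32, 0.0581). Eef1a1, the main form of eEF1A outside muscle and nerve, stayed near 12.9 throughout, with group means that spanned 0.14 over the 8 groups. Its difference at 40 h was 0.06 ± 0.07 (SE) (adjusted p = 0.736). Eef1b2 and Eef1d, parts of its exchange factor, differed by -0.02 and 0.05, and Eef2k, the kinase that inhibits eEF2, by -0.09.

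Eef1a2, the form of eEF1A used in muscle and neurons, was read at 6.97, 6.99, 7.01 and 7.02 in Cre minus livers of 40 h. In Cre plus livers it read 7.88, 7.02, 7.05, 7.23 and 7.07, with replicate A far above the rest. The same array had the skeletal muscle genes Acta1 at 10.14 and Tnnt3 at 7.85, against at most 4.58 and 4.14 in the other 8 livers of 40 h. The muscle gene Mylpf read 6.32 there, against at most 6.04. The muscle genes Ckm (5.95) and Myh4 (6.89) and the neuron genes Snap25, Syp and Stmn2 lay within the range of the other livers. That array's sum of all 8 markers was 10.78, while the other 8 livers lay between 8.44 and 8.89. The Eef1a2 difference was 0.22 ± 0.14 (SE) (adjusted p = 0.45) with this array and 0.03 (adjusted p = 0.918) without it. At 20 h Acta1 and Tnnt3 were also high in replicate D of Cre minus (7.63 and 5.33) and of Cre plus (8.59 and 6.36). Eef1a2 read 7.34 and 7.46 in those arrays, the highest value of each group. The methyltransferase gene Eef1akmt1, whose product modifies eEF1A, varied widely between livers. At 30 h it read 5.69, 5.51, 4.49 and 5.75 in Cre minus and 5.20, 4.33 and 3.97 in Cre plus livers, a difference of -0.81 ± 0.31 (SE) that was not called (adjusted p = 0.288).

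Messages with a 5′ terminal oligopyrimidine (TOP) tract, translated under mTOR control, include several elongation factors. Of 9 TOP mRNAs listed from general knowledge, 8 were measured and 7 tested, and Eef2 alone was called at 40 h. Of all probe sets 5.35% were called there. Their median difference was 0.05, and that of the 37 other tested members, of which 7 were called, was 0.19. The difference between these lists was not tested.

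The members called at 40 h are followed here through the earlier times. At 0 h their 8 differences ranged from -0.13 for Eif2s3y to 0.23 for Eif1a. By 20 h Eif4g2 stood at 0.50 ± 0.22 (SE) and the other 7 between -0.07 and 0.18. The differences at 30 h ran from 0.17 for Eif3j1 to 0.51 for Eif4g2, with 0.26 for Eef2 and 0.40 for Eif1ax. Whether the difference at 40 h exceeded that at 0 h was tested as an interaction. None was called for any member at 20, 30 or 40 h, where 0%, 0.0108% and 0.584% of all probe sets were called. At 40 h 10 of 44 members had an unadjusted p under 0.05 for the interaction, as did 6.09% of all probe sets. Among the called members the interaction at 40 h was 0.96 ± 0.39 (SE) for Eif6 (adjusted p = 0.646), 0.66 ± 0.22 (SE) for Eif2s3y and 0.63 ± 0.21 (SE) for Eif1ax (both adjusted p = 0.396).

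**Figure D3:**
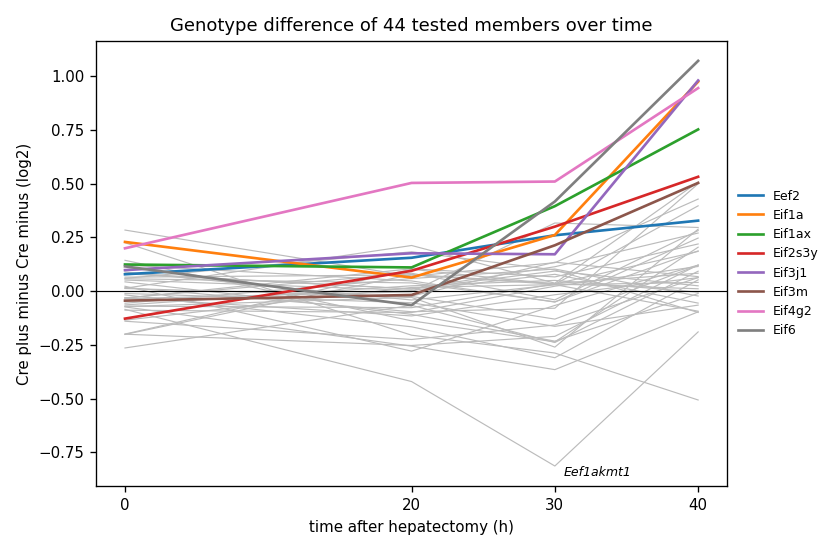
Fitted Cre plus minus Cre minus difference (log2, y axis) of the 44 tested members at 0, 20, 30 and 40 h after hepatectomy (x axis, h); coloured lines are the 8 members called at 40 h and grey lines the rest. At 0 h the coloured lines lie between -0.13 and 0.23, and at 40 h between 0.33 and 1.07; the interaction with time was not called for any member.

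Averaged over the 4 times, 3 members were higher in Cre plus livers: Eif4g2 by 0.54 ± 0.11 (SE) (adjusted p = 0.00328), Eif1ax by 0.35 ± 0.08 (SE) (adjusted p = 0.00572) and Eef2 by 0.21 ± 0.05 (SE) (adjusted p = 0.00798). Over all probe sets 6.31% were called in this average, 2.57% higher and 3.74% lower. All 3 calls were kept in each of the 32 omissions of 1 array, but the dimmer Eif1ax probe set gave 0.09 (adjusted p = 0.734). The number of members called was 8 without Cre minus replicate C of 30 h. That array read high for several members, such as 8.93 for Eif3j1, beside 8.05, 7.34 and 7.78 in the other Cre minus livers of 30 h. At 30 h itself, 2 members were called without it and 6 without all 3 arrays of low correlation.

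The level at 40 h can also be read against each genotype's own resting liver. In Cre minus livers the means of Eif1a, Eif3j1, Eif4g2, Eif2s3y, Eif3m and Eef2 at 40 h lay below those at 0 h, by 0.45, 0.23, 0.32, 0.48, 0.13 and 0.08 in the fit, with no call. In Cre plus livers the same 6 lay above, by 0.29, 0.65, 0.42, 0.18, 0.41 and 0.17, again with no call. Eif6 and Eif1ax in Cre plus livers were the called exceptions, given next. The step from 30 to 40 h was called for no member in either genotype, with 1.02% and 0% of probe sets called. At unadjusted p under 0.05 there were 8 members in Cre minus livers, beside 1 for Cre plus, and 8.73% and 5.19% of all probe sets. The fitted step was below 0 in 29 of 44 members in Cre minus and above 0 in 31 of 44 in Cre plus livers. In Cre minus livers the largest fitted step was that of Eif1a, -0.99 ± 0.25 (SE) (adjusted p = 0.0579).

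In Cre minus livers at 20 h, 4 of 44 members were called against 0 h, 3 higher and 1 lower, beside 7.37% of all probe sets (3.33% higher, 4.04% lower). Of the 44 differences 37 were above 0, with a median of 0.16, beside -0.03 over all probe sets. Array weights called 13 members, and a fit to these groups alone 12. Eif6 read 7.74, 7.87, 8.12 and 7.91 at 0 h and 8.70, 9.71, 9.42 and 9.58 at 20 h, so every 20 h value was above every 0 h value. It rose by 1.44 ± 0.28 (SE), 2.72-fold (adjusted p = 0.00318), and the call was kept in all 8 omissions. Eif4a1, the helicase of the cap-binding complex, read 7.51, 7.68, 7.88 and 7.66 at 0 h and 8.18, 8.15, 8.34 and 8.41 at 20 h. It rose by 0.59 ± 0.11 (SE) (adjusted p = 0.00174) without overlap, also in all 8 omissions. Eif1a rose by 0.83 ± 0.25 (SE) (adjusted p = 0.0419), a call lost in 6 of 8 omissions, with adjusted p up to 0.123. The 2 kept were those of 0 h replicate C and 20 h replicate C. A second Eif1a probe set gave 0.70 in this comparison (adjusted p = 0.157), not called.

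The called member that fell in Cre minus livers at 20 h was Eif4ebp2, an inhibitor of cap-dependent initiation. It read 9.85, 9.72, 9.56 and 9.30 at 0 h and 9.28, 9.02, 8.19 and 8.32 at 20 h, and fell by 0.90 ± 0.25 (SE) on the log2 scale (adjusted p = 0.0294). Without 0 h replicate A, B or C, or 20 h replicate C or D, the adjusted p was 0.0565 to 0.122. The other 2 probe sets of the gene differed by -0.19 (adjusted p = 0.229) and -0.34 (adjusted p = 0.0645), neither called. At 30 h 1 member, Eif4a1, was called, higher by 0.43 ± 0.11 (SE) (adjusted p = 0.0282), beside 3.14% of probe sets (1.01% higher, 2.13% lower). That call was lost without 0 h replicate A, B or D or 30 h replicate B or C, with adjusted p of 0.0542 to 0.123. At 40 h 2 were called, both lower, beside 4.77% of probe sets (2.32% higher, 2.44% lower). Eif4b, the helicase cofactor, fell by 0.47 ± 0.10 (SE) (adjusted p = 0.00617, and 0.0506 without 0 h replicate A). A dimmer Eif4b probe set gave -0.41 (adjusted p = 0.218), not called. Eif2ak1 fell by 0.30 ± 0.07 (SE) (adjusted p = 0.0176), and without 0 h replicate A or D or 40 h replicate B the adjusted p was 0.0811, 0.051 and 0.086.

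**Figure D4:**
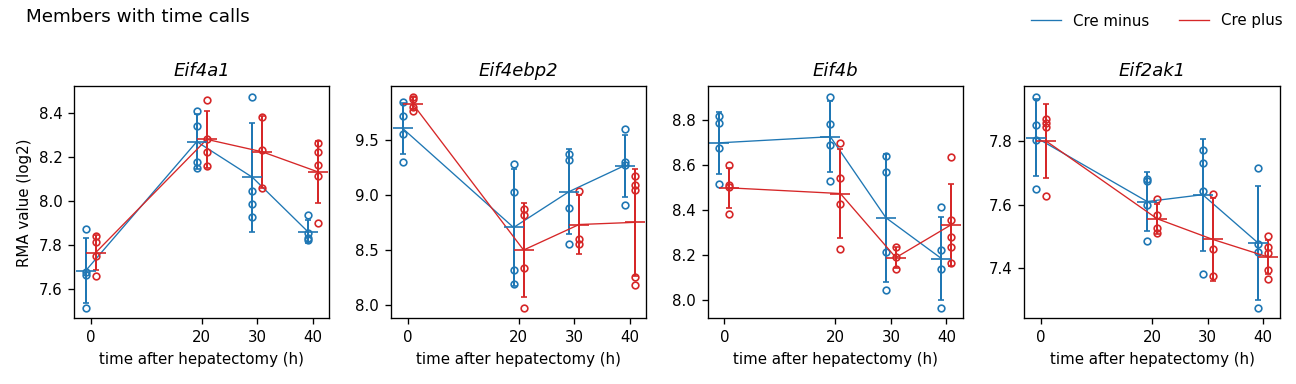
RMA values (log2, y axis) of Eif4a1, Eif4ebp2, Eif4b and Eif2ak1 against time after hepatectomy (h, x axis); open circles are livers, bars the group mean ± SD, lines join the means, blue Cre minus and red Cre plus. Eif4a1 stands higher and Eif4ebp2 lower at 20 h than at 0 h in both genotypes, and Eif2ak1 is lower at 40 h than at 0 h in both.

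In Cre plus livers, compared with their own 0 h group, 7 of 44 members were called at 20 h (5 higher, 2 lower), 7 at 30 h (4 higher, 3 lower) and 5 at 40 h (3 higher, 2 lower). Of all probe sets, 9.07% were called at 20 h (3.55% higher, 5.52% lower), 9.89% at 30 h (3.56% higher, 6.34% lower) and 9.66% at 40 h (3.59% higher, 6.07% lower). The 3 times share their 0 h livers. Eif6 read 7.86, 8.25, 8.05 and 7.94 at 0 h and 9.64, 9.44, 8.57 and 9.51 at 20 h. It rose by 1.26 ± 0.28 (SE) at 20 h (adjusted p = 0.00653), by 1.13 ± 0.31 (SE) at 30 h (adjusted p = 0.02) and by 1.19 ± 0.27 (SE) at 40 h (adjusted p = 0.00585). The calls at 20 and 40 h were kept in all omissions, and that at 30 h was lost without 30 h replicate A (0.80, adjusted p = 0.156). In Cre minus livers Eif6 stood 0.83 ± 0.28 (SE) above 0 h at 30 h and 0.24 ± 0.28 (SE) above it at 40 h, with no call (adjusted p = 0.112 and 0.731).

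Eif4ebp2, by the probe set used, was lower at all 3 times in Cre plus livers. Its 0 h livers read 9.77, 9.79, 9.89 and 9.87, its 20 h livers 7.97, 8.33, 8.87 and 8.81, and its 40 h livers 9.04, 8.25, 9.17, 8.18 and 9.09, all of them below the 0 h range. It fell by 1.33 ± 0.25 (SE) at 20 h (adjusted p = 0.00233), by 1.09 ± 0.28 (SE) at 30 h (adjusted p = 0.0137) and by 1.09 ± 0.24 (SE) at 40 h (adjusted p = 0.00558). The call at 30 h was lost without 30 h replicate A or B (adjusted p = 0.0651 and 0.0617). The other 2 probe sets of the gene gave smaller differences of the same sign, called at 20 h (-0.31 and -0.40) and 40 h (-0.29 and -0.49). Neither was called at 30 h (-0.29, adjusted p = 0.0585, and -0.18, adjusted p = 0.391).

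Eif4a1 rose in Cre plus livers too, by 0.52 ± 0.11 (SE) at 20 h (adjusted p = 0.00383), 0.46 ± 0.12 (SE) at 30 h (adjusted p = 0.0136) and 0.37 ± 0.10 (SE) at 40 h (adjusted p = 0.0217). Omissions are not reported for the 20 h call. The 30 h call was lost without 0 h replicate C (adjusted p = 0.051) or 30 h replicate A (0.0975). The 40 h call was lost without 0 h replicate C (0.0773) or D (0.0556) or 40 h replicate B (0.0501). Eif1ax, read by the brighter probe set, rose by 0.66 ± 0.17 (SE) at 30 h (adjusted p = 0.0134) and 0.79 ± 0.15 (SE) at 40 h (adjusted p = 0.00141), while the dimmer probe set gave -0.41 and -0.46, neither called. Without 30 h replicate A the 30 h difference was 0.47 (adjusted p = 0.117). Eif2ak1 fell by 0.24, 0.33 and 0.35 at 20, 30 and 40 h (adjusted p = 0.0354, 0.00979 and 0.00253). The 20 h call survived only the omission of 0 h replicate A, with adjusted p of 0.0515 to 0.138 in the other 7 omissions. The 30 h call was lost without 30 h replicate C (0.0754), and the 40 h call was kept in all 9.

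By the probe sets used, the remaining calls in Cre plus livers were each made at 1 time. The dimmer Eif3e probe set, not the one used, was called higher at 20, 30 and 40 h. Its differences were 0.60, 0.62 and 0.54 (adjusted p = 0.0272, 0.0352 and 0.0352). At 20 h Eif3j1 rose by 0.92 ± 0.27 (SE) (adjusted p = 0.0297), Eif4g2 by 0.71 ± 0.22 (SE) (adjusted p = 0.045) and Eif3d by 0.64 ± 0.19 (SE) (adjusted p = 0.0318). In the omissions that lost them, 5, 6 and 6 of 8, the adjusted p reached 0.168, 0.216 and 0.135. At 30 h the eIF2B subunit Eif2b2 rose by 0.54 ± 0.15 (SE) (adjusted p = 0.0279) and Eif4b fell by 0.34 ± 0.11 (SE) on the log2 scale (adjusted p = 0.0479). Leaving out 0 h replicate C or D, or 30 h replicate B or C, brought Eif2b2 to an adjusted p of 0.0734 to 0.0956. Eif4b was lost in all 7 omissions (0.0668 to 0.143). Its dimmer probe set gave -0.48 at 30 h (adjusted p = 0.102), not called.

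Several members exist as pairs of closely related genes, and each gene's own course is given here. Eif1a had Cre minus means of 7.67, 8.51, 8.21 and 7.26 at 0, 20, 30 and 40 h, and Cre plus means of 7.90, 8.57, 8.44 and 8.21. Eif1ax had Cre minus means of 6.64, 7.06, 7.03 and 6.84 and Cre plus means of 6.76, 7.17, 7.39 and 7.57. The mean of Eif1a was highest at 20 h in both genotypes. For Eif1ax the brighter probe set was highest at 40 h in Cre plus livers, while the dimmer one differed from 0 h by -0.46 there, not called. Eif2s3y means were 6.11, 6.26, 5.97 and 5.66 in Cre minus and 5.98, 6.36, 6.25 and 6.17 in Cre plus livers, and no change with time was called for it or for Eif2s3x. Differences between the members of a pair were not tested, since each probe set has its own response.

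**Figure D5:**
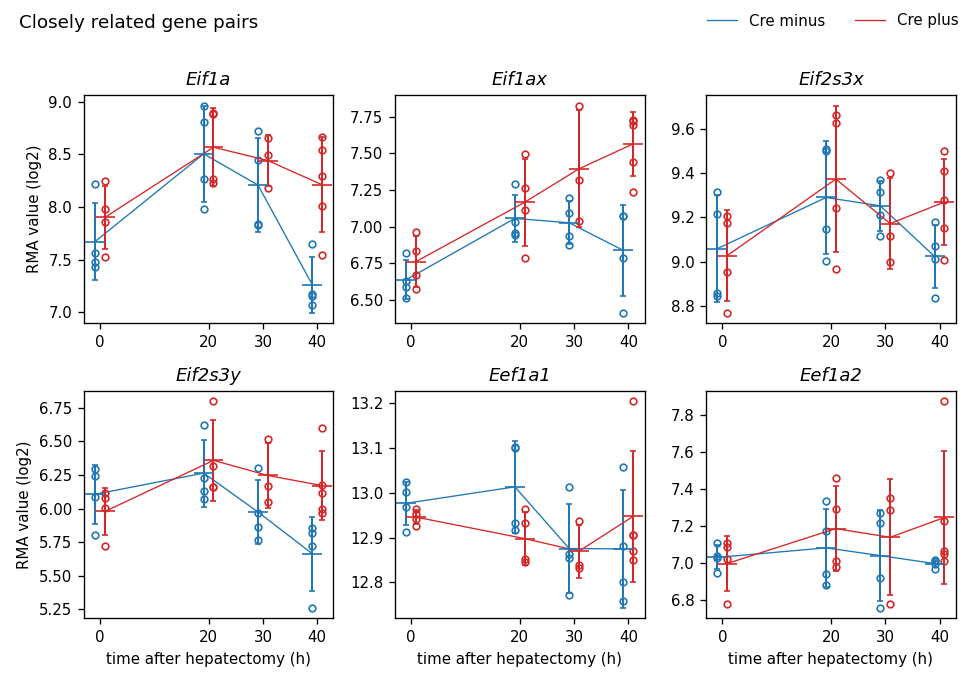
RMA values (log2, y axis) of the related genes Eif1a and Eif1ax, Eif2s3x and Eif2s3y, and Eef1a1 and Eef1a2 against time after hepatectomy (h, x axis); open circles are livers, bars the group mean ± SD, lines join the means, blue Cre minus and red Cre plus. The single Eef1a2 value of 7.88 at 40 h stands apart from the other livers, and Eef1a1 stays between 12.76 and 13.20.

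Other genes of the pathway were read through 3 lists. Of 12 tested genes of termination, ribosome recycling and poly(A) binding (15 listed), 3 were higher in Cre plus livers at 40 h and none lower. Of all probe sets 2.28% were higher and 3.07% lower. Etf1, the release factor that reads stop codons, was higher by 0.91 ± 0.16 (SE) (adjusted p = 5.74e-04). Pabpc1, the cytoplasmic poly(A)-binding protein that contacts eIF4G, was higher by 0.71 ± 0.15 (SE) (adjusted p = 0.00463), and Abce1, which splits ribosomes after termination, by 0.59 ± 0.12 (SE) (adjusted p = 0.00249). The median over the list was 0.10. Against 0 h, Etf1 rose by 0.84, Abce1 by 0.49, Pabpc1 by 0.79 and Pabpc4 by 0.95 in Cre minus livers at 20 h, beside 3.33% of all probe sets called higher. None of the list was called there at 40 h, beside 4.77% of all probe sets. In Cre plus livers at 40 h these 4 genes were called, higher by 0.99, 0.54, 0.67 and 0.76, beside 3.59% of all probe sets called higher.

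Of 15 tested genes of mTOR and other kinase control (21 listed) none was called between genotypes at 40 h, beside 5.35% of all probe sets. Their median difference was 0.13. Pdcd4, an inhibitor of the helicase eIF4A, fell by 0.93, 1.01 and 0.93 in Cre minus livers at 20, 30 and 40 h, and by 1.2, 1.51 and 1.15 in Cre plus livers. Mknk2, a kinase of eIF4E, rose by 0.65 in Cre minus livers at 20 h and by 0.81, 1.0 and 0.82 in Cre plus livers at 20, 30 and 40 h. Averaged over the times, Ddit4, which inhibits mTOR, differed by 0.87 ± 0.18 (SE), Cre plus being higher (adjusted p = 0.00274). Against 0 h, Ddit4 was called in Cre plus livers at 30 h (1.58, with 2.35 within PHX2 and 0.43 within PHX3), as was Akt2 (-0.37). Of 21 tested aminoacyl-tRNA synthetases and their partners (22 listed), which charge tRNA, only Rars was called at 40 h, higher by 0.74 ± 0.20 (SE) (adjusted p = 0.0285), with a median of 0.15. In time, Gars and Aimp2 rose and Cars fell in Cre minus livers at 20 h, by 0.73, 0.58 and 0.39. Cars was also called there at 30 h (-0.31). Tars fell by 1.12 in Cre minus livers at 40 h, with -0.51 within PHX2 and -1.53 within PHX3. In Cre plus livers Aimp2 (0.58) and Cars (-0.27) were called at 20 h, and Cars (-0.39) and Yars (-0.43) at 30 h. Tars was called there at 40 h (-0.89, with -0.24 within PHX2 and -1.37 within PHX3), and Gars was not called.

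Values also differed between the batches. Between PHX3 and PHX2, 11 of 44 members were called, 5 higher and 6 lower, beside 27% of all probe sets. Of the members called at 40 h this touched Eif4g2, lower in PHX3 by 0.34 on the log2 scale. In all 8 called members the difference at 40 h was above 0 within each batch, from 0.20 to 0.99 in PHX2 and from 0.38 to 1.05 in PHX3. These members were chosen by the fit to both batches together, so their signs within a batch are not independent support. The PHX2 values also rest on a single Cre minus liver.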

How the data were processed

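Total liver RNA was labelled with biotin and hybridised to a 1-colour Affymetrix array, per the labels' protocols. The authors deposited log2 expression values for 12488 probe sets. The submitters' processing notes name RMA; the sources used here give neither its version nor whether both batches were normalized jointly. Controls made up 66 probe sets, and the platform annotation gives 1 gene for 10833 of the others, several for 396 and none for 1193. The main model, in R 4.3.3, used limma 3.58.1 (lmFit, eBayes, 2-sided) on the 9249 tested probe sets, with 8 groups and batch as terms over 32 arrays, which share 1 estimate of the spread. Benjamini-Hochberg adjustment ran within each comparison; the fit was tested on simulated data. For arrays, their number limits the precision. Each n counts labelled liver samples, not stated to be separate mice, so SDs and p-values measure only how these samples vary, which may be technical. Members and gene lists were chosen with earlier results of these data known.

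Described in full were members called in a genotype comparison, the up to 4 highest and 4 lowest called members at each time, and in each role the member with the highest mean and the 2 with the largest genotype difference at 40 h; Eef1akmt1, Eif3b, Eif2d and Eif2b2 at 40 h were added after their values were seen. From each pathway list the genes described were among the up to 4 called genes of largest difference per comparison, but not all such calls are printed. Alternatives covered the filter, batch, replicate block, normalization, array weights, subsets of arrays, the choice of probe set and each array left out.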

Additional observations from a re-analysis of the deposited data

Results flagged for a closer look

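Among 19 named members, 133 groups of 4 or 5 livers were examined for a value standing far from the rest of its group, and 8 had one; chance alone marks about 1 group in 20. At 40 h in Cre plus livers, Eef1a1 read 13.20 in replicate E, where the others lay between 12.85 and 12.91, and Eif3m read 8.97 in the same array, where the others lay between 8.14 and 8.34. Eef1a2 read 7.88 in replicate A of that group, where the others lay between 7.02 and 7.23. The muscle markers Acta1 and Tnnt3 were high in that array too, while Ckm and Myh4 were not. At 0 h, Eif1a read 8.22 in Cre minus replicate C, against 7.43 to 7.56 in the others. In Cre plus livers of 0 h Eif2ak1 read 7.63 in replicate A (others 7.84 to 7.87), Eif3m 7.84 in replicate C (others 8.02 to 8.04) and Eif3d 9.19 in replicate B (others 8.82 to 8.86). At 20 h Eif3c read 9.47 in Cre plus replicate C, where the others lay between 10.02 and 10.11.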

How the results depend on the processing

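The 43 differences of named members were recomputed under 1006 alternatives in all: 790 kept their direction and side of the threshold, 206 kept the direction and lost the call, 7 gained one and 3 reversed. The reversals were Eif1ax in Cre plus livers against 0 h with its dimmer probe set (-0.41 at 30 h and -0.46 at 40 h) and Eef1a1 at 40 h in PHX2 alone (-0.02). Of the 44 tested members, the number called between genotypes at 40 h, 8, became 5 without a batch term, 2 with a replicate block, 0 in PHX2 alone and 3 from the 40 h arrays alone. The labels do not say what the replicate letters stand for. Over 105 same-letter pairs the mean correlation of deviations was -0.03, with a range of -0.63 to 0.55. Of these pairs 31 exceeded 0.1, and 3 of 32 arrays correlated best with their own letter. Such correlations cannot decide whether livers of a letter were handled together. The block moved no other count by more than 1.5 times. Array weights gave 12 calls at 30 h between genotypes, 15 in the average, 13, 4 and 10 at 20, 30 and 40 h against 0 h in Cre minus and 21, 21 and 8 in Cre plus livers, 8 and 6 for the step from 30 to 40 h in Cre minus and Cre plus, and 6 and 4 for the interactions at 30 and 40 h. PHX2 alone gave 0 calls in every time comparison with 0 h and in the average, and PHX3 alone gave 2 at 20 h between genotypes, 7 in the average, 0, 0 and 1 at 20, 30 and 40 h in Cre minus and 1 and 1 at 30 and 40 h in Cre plus livers. Fits to the compared groups alone gave 12, 0 and 1 in Cre minus livers at 20, 30 and 40 h. Quantile normalization gave 2 at 30 h in Cre minus livers and 1 for their step from 30 to 40 h, and averaging a gene's probe sets gave 1 at 40 h and 1 for that step. Leaving out arrays with a mean correlation under 0.95 gave 6 between genotypes at 30 h, 9 in the average, 0 at 30 h in Cre minus livers, 1 for the interaction at 30 h and 5 for the step from 30 to 40 h in Cre plus livers. With 1 array left out in turn, the counts ran from 2 to 10 at 40 h and 0 to 2 at 30 h between genotypes, from 3 to 8 in the average, from 2 to 4, 0 to 1 and 0 to 3 at 20, 30 and 40 h in Cre minus livers, from 3 to 11, 2 to 6 and 4 to 6 in Cre plus livers, and from 0 to 1 for the step from 30 to 40 h in Cre minus livers. In PHX2 alone the single Cre minus liver of 40 h is assumed to vary like the other groups. The cause of these changes was not tested. Shares of all probe sets called under each alternative are not given, so these counts cannot be read as particular to the members.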
